A study of Mus musculus with 14 samples.

Results

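The collagen genes were taken as every row, in both deposited expression tables, whose mouse symbol reads Col, a number, the letter a and a number, as in Col1a1. The rule found 44 genes among the 55291 symbols of each table. Collagens are secreted or membrane-bound proteins whose chains wind around each other into rope-like helical molecules. The chains are hydroxylated and folded in the endoplasmic reticulum, trimmed outside the cell and crosslinked into fibrils, networks or filaments. Fibroblasts and other stromal cells are the main makers of fibrillar collagen in most tissues, and T cells meet it through receptors when they enter a tumour.

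The libraries came from mouse cells of 2 experiments, wild-type apart from the transgenic OT-1 T cell receptor in the second. In one, CD8+ T cells were enriched with magnetic beads and sorted by flow cytometry, from spleens (n = 3) and from MCA205 fibrosarcomas grown under the skin of C57BL/6 mice for 14 days (n = 3). The same 14 days of tumour growth are recorded for the spleen samples. MCA205 is a transplanted mouse fibrosarcoma line, so the cancer cells themselves are of connective tissue type. The labels call the tumour samples pooled and do not say how many mice each holds. In the other, whole OT-1 splenocytes, whose CD8+ T cells recognise an ovalbumin peptide, received 1 µg/mL of that peptide and 200 U/mL interleukin-2 for 3 days, followed by 4 days of expansion. The culture medium held vehicle (DMSO, n = 4) or ND-646 at 100 nM (n = 4), which blocks acetyl-CoA carboxylase, the enzyme that commits acetyl-CoA to fatty acid synthesis. Separate mice or cultures are not named for the replicates, and the p-values then reflect only how much these libraries vary, possibly for technical reasons alone.

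Libraries held 19.6 to 21 M counts in spleen and tumour and 23.5 to 33.8 M in the cultures (M, 1000000). Levels are counts per 1000000 (CPM), scaled within each table by the trimmed mean of M-values (TMM), and the tables were scaled separately. A count of 3, the limit that a count of 0 allows, was worth 0.0878 to 0.154 CPM, counting error only. The CD8 T cell markers were present everywhere: the 12 genes summed to 9255 to 9329 CPM in spleen, 3959 to 5309 CPM in tumour, 5365 to 5434 CPM in vehicle and 4996 to 5328 CPM in ND-646 libraries. Spleen library 1 held more fibroblast marker RNA than the other spleen libraries, at a low level: these markers summed to 8.73 CPM, against 2.15 and 2.00 CPM. Other stromal lists did not share this excess. In spleen libraries 1 to 3, pericyte and smooth muscle genes summed to 2.97, 3.93 and 3.98 CPM and endothelial genes to 1.16, 0.699 and 1.10 CPM. The tumour libraries also held markers of fibroblasts and fibrosarcoma other than collagens. Of these 13 genes 12 were higher than in spleen, against 43.6% of all genes tested. All 12 reached the count minimum for testing only through the tumour libraries and had to be higher to be tested. Fibronectin Fn1 rose from 1.23 ± 1.57 to 2355 ± 370 CPM (SD, n = 3 each). Tumour levels of the collagens are read here as levels in the sorted preparation, fibrosarcoma or stromal RNA included, and the cell that made a transcript was not measured. In such bulk libraries fewer cells of a type and less RNA per cell cannot be told apart.

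The promoters of 5 collagens on which the results turn are shown first: Col3a1, the most abundant collagen of the tumour libraries; Col7a1, which changed in both experiments; and Col11a2, Col20a1 and Col23a1, which were lower in tumour than in spleen. Each line gives the 150 bases before the transcription start, 5′ to 3′ on the gene's strand, from RefSeq on GRCm38.p6. Capitals mark any copy of the TATA box letters TATAAA, of the letters CCAAT known from CCAAT boxes, or of the GC box letters GGGCGG, on either strand.
Col3a1 (chr1:45311388-45311537, plus strand): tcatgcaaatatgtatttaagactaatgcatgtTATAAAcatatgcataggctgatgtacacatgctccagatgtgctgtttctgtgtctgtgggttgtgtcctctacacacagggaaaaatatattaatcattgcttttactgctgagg
Col7a1 (chr9:108953436-108953585, plus strand): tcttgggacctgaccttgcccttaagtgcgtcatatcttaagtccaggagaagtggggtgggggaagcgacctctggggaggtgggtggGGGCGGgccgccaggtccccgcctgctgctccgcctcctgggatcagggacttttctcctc
Col11a2 (chr17:34038988-34039137, plus strand): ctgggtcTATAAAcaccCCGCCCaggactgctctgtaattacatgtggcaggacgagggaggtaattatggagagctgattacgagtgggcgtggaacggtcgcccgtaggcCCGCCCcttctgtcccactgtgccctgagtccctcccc
Col20a1 (chr2:180986385-180986534, plus strand): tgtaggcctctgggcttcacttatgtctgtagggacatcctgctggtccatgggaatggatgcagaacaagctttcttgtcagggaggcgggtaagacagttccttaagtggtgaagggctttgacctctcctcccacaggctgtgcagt
Col23a1 (chr11:51289770-51289919, plus strand): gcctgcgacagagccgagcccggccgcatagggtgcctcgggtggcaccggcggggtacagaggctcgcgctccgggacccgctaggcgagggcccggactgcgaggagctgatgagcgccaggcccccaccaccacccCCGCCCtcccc
The Col3a1 window held no CG dinucleotide and the Col20a1 window held 1, against 6 in Col7a1, 8 in Col11a2 and 16 in Col23a1. Promoter windows were found for 35 of the 44 collagens. On either strand, TATAAA was in 7.57%, CCAAT in 24.5% and GGGCGG in 28.6% of the 32851 promoter windows of this length. Among the collagens that were higher in tumour and had a window, 1 of 20 held TATAAA, 6 held CCAAT and 12 held GGGCGG. Among those that were lower, 1 of 3 held TATAAA, 0 held CCAAT and 2 held GGGCGG. These matches describe letters in the window and no binding.

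The first comparison asked which collagens differ between CD8+ T cell preparations from tumour and from spleen. Collagen RNA was a trace in spleen and a sizeable share of all counts in tumour. Collagen genes took 0.00899%, 0.00729% and 0.00727% of the counts of the spleen libraries 1 to 3, and 0.833%, 1.19% and 1.06% of the tumour libraries. The mean was 0.00785% ± 0.000989 in spleen and 1.03% ± 0.180 in tumour (SD, n = 3 each), and the groups did not overlap.

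Of the 44 collagens, 27 had enough counts to be tested in the spleen and tumour table (the edgeR rule asks for about 10 counts in at least as many libraries as the smaller group has). By edgeR's quasi-likelihood test with Benjamini-Hochberg adjustment at 0.05, 23 were higher in tumour and 4 were lower, so all 27 tested members passed. The background was wide: 83.8% of all 15042 genes tested were called in this comparison, 43.6% higher and 40.2% lower. The median log2 fold change was 9.88 over the 27 tested collagens and 0.03 over all genes tested. The filter shapes this count, since 20 of the 23 higher genes reached the minimum only through the tumour libraries and had to be higher to be tested. Col1a1, Col7a1 and Col27a1 were the 3 higher genes that met it in both groups. Of the lower genes, Col11a2 and Col23a1 met it in both, and Col20a1 and Col9a3 only in spleen.

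**Figure D1:**
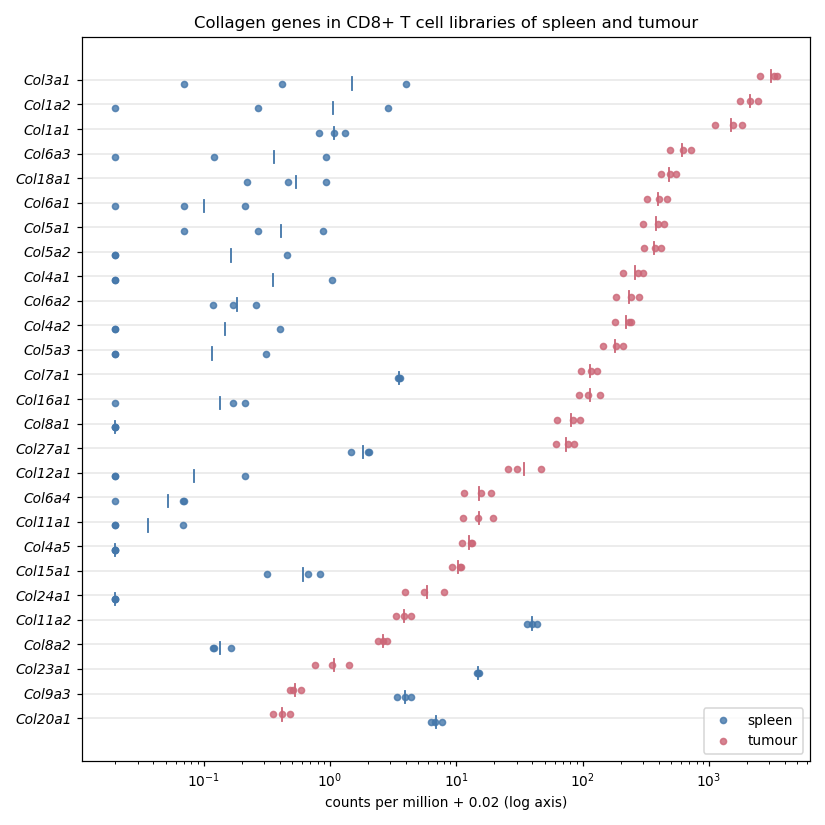
CPM plus 0.02 (log axis) of the 27 tested collagens in each spleen library (blue) and tumour library (red), ordered by tumour mean; vertical ticks are group means and points at 0.02 are counts of 0. Col11a2, Col23a1, Col9a3 and Col20a1 are the genes whose spleen points lie to the right of their tumour points.

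The fibril-forming collagens gave the highest levels. Col3a1, the chain of type III collagen of soft tissues, stood at 2533, 3464 and 3252 CPM in tumour libraries 1 to 3 and at 3.95, 0.400 and 0.0499 CPM in spleen libraries 1 to 3. Col1a2, a chain of type I collagen, stood at 1769, 2452 and 2124 CPM in tumour and at 2.84, 0.250 and 0 CPM in spleen. Col1a1, its partner chain, stood at 1128, 1845 and 1540 CPM in tumour and at 1.30, 1.05 and 0.798 CPM in spleen. All tumour libraries lay far above all spleen libraries for these 3 genes, and tumour library 1 was the lowest of its group each time. Their log2 fold changes were 11.01 ± 0.73 for Col3a1, 10.97 ± 0.68 for Col1a2 and 10.47 ± 0.29 for Col1a1 (SE; edgeR adjusted p = 3.8e-05, 2.81e-05 and 2.41e-08).

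The spleen side of these folds rested largely on library 1. Its counts for Col3a1 were 82, against 8 and 1 in spleen libraries 2 and 3, and for Col1a2 they were 59, against 5 and 0. Col1a1 was different, with 27, 21 and 16 counts. Without spleen library 1 the tumour level over the pooled spleen level rose from 2059-fold to 13718-fold for Col3a1 (95% Poisson interval of the 9 remaining spleen counts 7226 to 29999) and from 2006-fold to 16922-fold for Col1a2 (7251 to 52116). For Col1a1 it went from 1426-fold to 1625-fold (1179 to 2308).

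The collagens that co-assemble with type I collagen in fibrils followed. Col5a1, a chain of type V collagen, which starts and limits fibril growth, stood at 303, 443 and 392 CPM in tumour against 18, 5 and 1 counts in spleen. Col5a2, its partner chain, stood at 306, 418 and 377 CPM against 9, 0 and 0 counts. Col5a3, the less common type V chain, stood at 145, 210 and 183 CPM against 6, 0 and 0 counts. Again the groups were far apart and spleen library 1 held most of the spleen counts. The log2 fold changes were 9.89 ± 0.35, 11.22 ± 0.36 and 10.74 ± 0.38 (edgeR adjusted p = 1.28e-07, 5.71e-08 and 8.41e-08). Without spleen library 1, Col5a1 was 2531-fold higher in tumour (95% Poisson interval 1163 to 6897), Col5a2 at least 4893-fold and Col5a3 at least 2391-fold, against 3 counts over the other two spleen libraries.

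Type VI collagen, which forms beaded filaments around cells, was represented by its classical chains. Col6a3, the longest chain, stood at 489, 721 and 623 CPM in tumour against 19, 2 and 0 counts in spleen. Col6a1 stood at 322, 463 and 405 CPM against 4, 0 and 1 counts. Col6a2 stood at 184, 279 and 240 CPM against 5, 3 and 2 counts. The log2 fold changes were 10.76 ± 0.45, 12.13 ± 0.31 and 10.42 ± 0.29 (edgeR adjusted p = 8.05e-07, 8.39e-09 and 1.27e-08). Without spleen library 1, Col6a3 was 12214-fold higher (95% Poisson interval 3381 to 100858, 2 spleen counts), Col6a1 15859-fold (2846 to 626412, 1 count) and Col6a2 1874-fold (803 to 5773, 5 counts). The fourth tested member of the class, Col6a4, had 231, 366 and 326 counts in tumour and 1, 1 and 0 in spleen. Col6a5 and Col6a6 were too low to test.

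Basement membrane collagens were also high in tumour. Col4a1, which with Col4a2 makes the common type IV network, stood at 210, 302 and 276 CPM against 21, 0 and 0 counts in spleen. Col4a2 stood at 180, 241 and 235 CPM against 8, 0 and 0 counts. In GENCODE M21 these genes lie head to head on opposite strands with overlapping ends. The log2 fold changes were 9.55 ± 0.50 and 10.63 ± 0.36 (edgeR adjusted p = 4.92e-06 and 6.87e-08). Without spleen library 1, Col4a1 was at least 3501-fold and Col4a2 at least 2922-fold higher. Col4a5 had 225, 258 and 275 counts in tumour and 0 in every spleen library, at least 253-fold higher, while Col4a3, Col4a4 and Col4a6 were not tested.

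Col18a1, a multiplexin of basement membranes whose end fragment is endostatin, stood at 419, 551 and 492 CPM in tumour and 0.916, 0.200 and 0.449 CPM in spleen. Its log2 fold change was 9.84 ± 0.24 (edgeR adjusted p = 7.02e-09). Without spleen library 1 the ratio went from 924-fold to 1500-fold (95% Poisson interval 877 to 2816). The other multiplexin, Col15a1, was lower in abundance, at 9.19, 11 and 10.6 CPM in tumour against 0.820, 0.649 and 0.299 CPM in spleen.

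The other higher collagens were Col8a1, Col8a2, Col11a1, Col12a1, Col16a1, Col24a1, Col27a1 and Col7a1, with tumour means from 2.60 to 115 CPM. Against 3 counts over the spleen group, Col8a1 of the hexagonal network class was at least 1637-fold higher and the fibril-forming Col24a1 at least 117-fold, both with 0 counts in all spleen libraries. Col7a1, which makes the anchoring fibrils beneath epithelia, and Col27a1, a fibril-forming chain of cartilage, were named after their values were seen, because they had counts in every spleen library. Col7a1 stood at 3.52, 3.55 and 3.44 CPM in spleen and 97.8, 131 and 116 CPM in tumour. Col27a1 stood at 2.02, 2.00 and 1.45 CPM in spleen and 61.1, 85.3 and 76.7 CPM in tumour. Their log2 fold changes, 5.03 ± 0.13 and 5.34 ± 0.18 (edgeR adjusted p = 3.5e-09 and 1.18e-08), were the largest of the 4 smallest rises, and spleen library 1 did not stand out for either gene.

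The 4 collagens that were lower in tumour had steady counts in every spleen library. Col11a2, a chain of the cartilage fibril collagen type XI, stood at 43.9, 36.0 and 39.4 CPM in spleen and 3.85, 4.36 and 3.35 CPM in tumour. Col23a1, a transmembrane collagen, stood at 15.2, 14.5 and 14.9 CPM in spleen and 0.741, 1.03 and 1.39 CPM in tumour. Col20a1, a fibril-associated collagen, stood at 6.80, 7.69 and 6.33 CPM in spleen and 0.395, 0.462 and 0.335 CPM in tumour. Col9a3, a chain of the fibril-associated type IX collagen, stood at 3.38, 4.39 and 3.89 CPM in spleen and 0.494, 0.462 and 0.574 CPM in tumour. The groups did not overlap for any of the 4, and these genes, too, were singled out after their values were seen.

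Their log2 fold changes were -3.37 ± 0.12 for Col11a2, -3.81 ± 0.19 for Col23a1, -4.11 ± 0.22 for Col20a1 and -2.91 ± 0.24 for Col9a3 (edgeR adjusted p = 1.08e-08, 6.34e-08, 1.23e-07 and 2.56e-06). Col20a1 and Col9a3 met the count minimum only in spleen and had to be lower to be tested. CD8 T cell markers moved the same way by less: 11 of 12 were lower in tumour (against 40.2% of all genes tested), 1 (Cd28) was higher and their median log2 fold change was -0.97. With the libraries scaled to these markers, which shifted the median of all genes by 1.01 and the higher share of calls from 52.0% to 86.0%, the 4 genes were still lower, at -2.36, -2.81, -3.12 and -1.92 in the same order. B cell markers also fell with them: the 6 genes summed to 791 to 818 CPM in spleen and 55.3 to 71.2 CPM in tumour, and Ighm went from 704 ± 17 to 57.5 ± 7.89 CPM. All 4 tested members were lower, against 40.2% of all genes tested, and 2 of the 4 met the count minimum only in spleen. Ms4a1, a B cell surface gene, stood at a mean of 0.720 CPM in spleen and 0.0494 CPM in tumour. The part of B cells in the result was not tested.

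Neighbouring genes were looked at, since how the counting treated strand and overlaps is not given in the sources used here. In GENCODE M21 the gene before Col11a2 on the same strand is Rxrb, a nuclear receptor, 1037 bases away. It went from 110 ± 1.46 to 61.4 ± 1.87 CPM, a log2 fold change of -0.84 ± 0.05 (edgeR adjusted p = 1.35e-07), a smaller fall than that of Col11a2. Ogfr, 1953 bases before Col9a3 on the same strand, stood at 98.3 ± 2.13 and 97.4 ± 3.60 CPM (edgeR adjusted p = 0.814). Phykpl, 838 bases beyond Col23a1 on the same strand, stood at 19.9 ± 0.174 and 22.6 ± 1.12 CPM, a rise of 0.19 ± 0.07 (edgeR adjusted p = 0.038). Clk4, on the other side of Col23a1, went from 126 ± 5.30 to 83.4 ± 3.00 CPM (log2 -0.59 ± 0.05, edgeR adjusted p = 3.5e-06), and Arfgap1, 4008 bases before Col20a1, from 71.5 ± 2.04 to 65.7 ± 0.437 CPM (log2 -0.12 ± 0.05, edgeR adjusted p = 0.0324). H2-Oa, a chain of an MHC class II accessory protein, lies 25654 bases beyond Col11a2 and fell furthest of these genes, from 26.2 ± 1.39 to 4.53 ± 0.366 CPM (log2 -2.53 ± 0.10, edgeR adjusted p = 1.96e-08). By the fitted values none of these 6 neighbours fell as much as its collagen, and the differences between neighbour and collagen were not tested. The 2 closest neighbours, both on the opposite strand, were too low to test: Tcfl5, which overlaps the end of Col9a3, and Chrna4, 16 bases beyond Col20a1, had at most 0.103 and 0 CPM in any spleen or tumour library.

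Col7a1 had a neighbour that differed in the same direction in both tables. Ucn2, which encodes the peptide urocortin 2, lies 1134 bases beyond Col7a1 on the same strand. It went from 0.0499 ± 0.0499 CPM in spleen to 1.70 ± 0.214 CPM in tumour (log2 4.94 ± 0.51, edgeR adjusted p = 1.24e-05), and stood at 0.312 ± 0.132 CPM in vehicle and 0.0659 ± 0.00591 CPM with ND-646, where it was too low to test. Uqcrc1, on the other side of Col7a1, stood at 157 ± 0.437 and 169 ± 4.35 CPM in spleen and tumour (edgeR adjusted p = 0.0558). In the cultures Uqcrc1 was lower with ND-646, as Col7a1 was. It stood at 186 ± 5.33 CPM in vehicle and 164 ± 9.52 CPM with ND-646 (log2 -0.18 ± 0.04, edgeR adjusted p = 0.00123). Whether reads were shared between Col7a1 and Ucn2 was not tested.

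**Figure D2:**
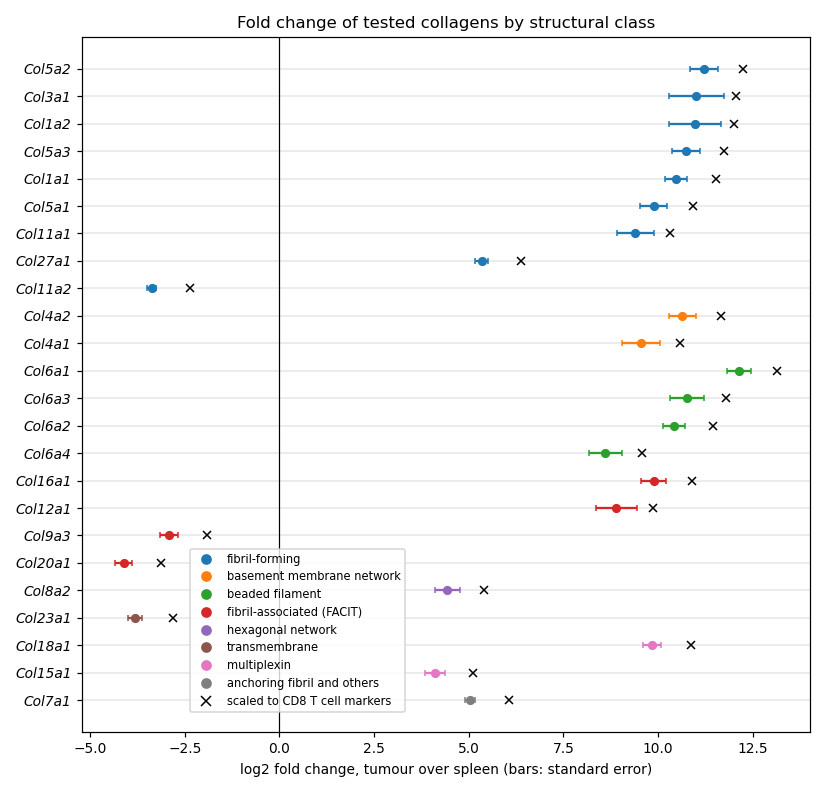
Log2 fold change, tumour over spleen, with its standard error, for the 24 tested collagens that had a count in spleen, coloured by structural class; crosses give the value with libraries scaled to CD8 T cell markers. Col11a2, Col9a3, Col20a1 and Col23a1 lie left of 0 under either scaling, and every other gene shown lies right of 4.

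By structural class, 9 of the 10 tested fibril-forming collagens were higher and Col11a2 was lower. All 3 tested basement membrane chains, all 4 tested beaded filament chains, both tested hexagonal network chains, both multiplexins and Col7a1 were higher. The fibril-associated class was split, with Col12a1 and Col16a1 higher and Col9a3 and Col20a1 lower. The only tested transmembrane collagen, Col23a1, was lower. Every higher gene except Col1a1, Col7a1 and Col27a1 reached the count minimum only through the tumour libraries. The lower genes Col9a3 and Col20a1 reached it only through the spleen libraries. For all of these the filter fixed the direction, so these class counts carry no further support. The 17 untested collagens had at most 20 counts in any library of this table, and Col9a1, Col19a1 and Col22a1 had 0 in all 6.

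Proportions between several abundant collagen chains varied little across the tumour libraries, for chains that share a molecule and for others. Levels were divided by the length of the longest coding transcript in GENCODE M21 to compare genes. Per kilobase, Col1a1 was 0.575, 0.678 and 0.654 times Col1a2 in tumour libraries 1 to 3. Col4a1 was 1.13, 1.22 and 1.14 times Col4a2. Col5a1 was 0.781, 0.836 and 0.821 times Col5a2. Relative to its mean, each of these ratios varied less between libraries than the collagen share of counts did. So did the ratio of Col3a1 to Col1a1, chains of different molecules, at 2.39, 2.00 and 2.25. Col27a1 held 0.556%, 0.546% and 0.551% of the collagen level per kilobase, so steady proportions were not particular to chains that share a molecule. Some less abundant chains were less steady. Col12a1 held 0.154%, 0.127% and 0.224% of that level, and Col8a2 was 0.0445, 0.0323 and 0.0394 times Col8a1. The Col6a1 level per kilobase was 1.98, 1.88 and 1.91 times that of Col6a2, and the Col6a3 level 0.616, 0.632 and 0.624 times that of Col6a1. Type I collagen molecules usually hold more of the Col1a1 chain than of the Col1a2 chain, and the RNA ratio lay below 1 in all 3 libraries. These ratios depend on the transcript lengths chosen and on how evenly reads cover long transcripts.

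The makeup of the collagen RNA differed between tissues. In tumour, Col1a1, Col1a2 and Col3a1 made up 67.8% ± 0.128 of the collagen level per kilobase (SD, n = 3). In spleen they made up 4.26% ± 4.45, with 9.35% in library 1. Col11a2, Col20a1, Col23a1 and Col9a3 made up 86.7% ± 6.42 in spleen and 0.0611% ± 0.00769 in tumour. In the cultures, whose table was scaled separately, the same 4 genes made up 70.5% ± 1.58 of vehicle and 73.6% ± 2.96 of ND-646 collagen levels per kilobase (SD, n = 4 each). Col1a1, Col1a2 and Col3a1 together were at 0.605% ± 0.214 and 0.425% ± 0.0993 there.

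**Figure D3:**
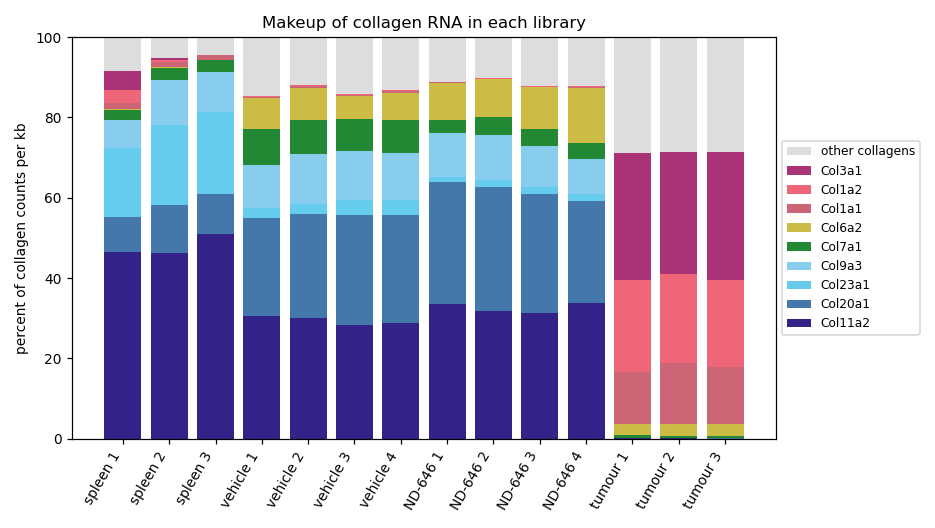
Share of the collagen level per kilobase (percent, stacked to 100) held by 9 collagens and by all others in each of the 14 libraries. Blue and cyan blocks (Col11a2, Col20a1, Col23a1, Col9a3) fill most of every spleen and culture bar, and red and purple blocks (Col1a1, Col1a2, Col3a1) fill 67.8% of the tumour bars on average.

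Most collagens that were abundant in tumour were highest in spleen library 1 among the spleen libraries, together with other fibroblast list genes. Of the 14 collagens with a tumour mean of at least 100 CPM, 13 were highest in library 1 among the spleen libraries, the exception being Col7a1. Their level in library 1 was a median of 0.156% of the tumour mean, against 0.0124% in library 2 and 0.00710% in library 3. All 8 fibroblast list genes with such a tumour level were also highest in library 1, at a median of 0.0940% of the tumour mean, against 0.00847% and 0.00491%. The whole fibroblast list, 13 genes without collagens, summed to 5471 to 7995 CPM in tumour. The B cell gene Cd79a was also highest in library 1, at 2.70, 1.35 and 1.2 CPM. The source of these counts was not tested. Col1a1 stood out in libraries 2 and 3, where it had 21 and 16 counts while Col1a2 had 5 and 0.

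**Figure D4:**
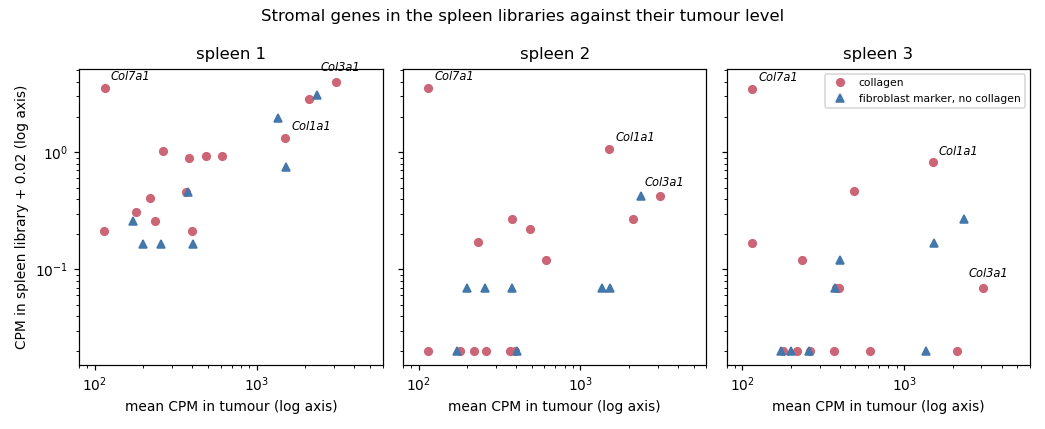
Level in each spleen library (CPM plus 0.02, log axis) against the mean tumour level (CPM, log axis) for 14 collagens (circles) and 8 other fibroblast markers (triangles) with a tumour mean of at least 100 CPM. In spleen 1 both sets rise together with the tumour level, in spleen 2 and 3 most points are at or near 0, and Col7a1 stays at 3.44 to 3.55 CPM throughout.

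Most tested genes that make, trim and bind collagen were higher in tumour, as 43.6% of all genes tested were. As for the collagens, many of them reached the count minimum only through the tumour libraries and had to be higher to be tested. Of 21 genes of collagen hydroxylation, folding and export, 20 were tested, 19 were higher in tumour, 11 of which met the minimum in both groups, and 1 was lower (median log2 fold change 2.79, against 0.03 over all genes). P3h3, a partner of collagen lysyl hydroxylation, went from 0.0976 ± 0.0825 to 88.2 ± 8.90 CPM, and P4hb, the disulfide isomerase subunit of prolyl hydroxylase, from 180 ± 7.07 to 719 ± 59.5 CPM. The lower gene was Mia3, an export receptor for bulky cargo such as procollagen, at 148 ± 2.30 and 115 ± 7.12 CPM (SD, n = 3 each). Of 13 genes of procollagen processing and crosslinking, 11 were tested and all 11 were higher (median 7.86), but only Adamts14 and Loxl3 met the minimum in both groups. Bmp1, a procollagen C-proteinase, went from 0.262 ± 0.0699 to 136 ± 15.7 CPM, and Adamts14, an N-proteinase, from 6.68 ± 0.278 to 77.0 ± 7.89 CPM. With the CD8 scaling Mia3 was no longer lower, and all 20 tested genes of the first list were higher.

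Collagen receptors were mixed. Of 10 genes, 9 were tested, 7 were higher, 4 of which met the minimum in both groups, and 2 were lower (median 2.58). Itgb1, the shared beta chain of the collagen-binding integrins, went from 148 ± 9.51 to 882 ± 60.7 CPM, and Mrc2, an uptake receptor of fibroblasts, from 0.0321 ± 0.0557 to 169 ± 26.5 CPM. The lower genes were Lair1, an inhibitory collagen receptor of leukocytes, at 9.74 ± 1.17 and 4.17 ± 1.24 CPM, and Itga10, an integrin alpha chain, at 6.21 ± 0.384 and 4.49 ± 0.952 CPM. Neither Lair1 nor Itga10 passed the test with libraries scaled to CD8 markers. Among 9 collagen-degrading enzymes, all 6 tested were higher (median 6.99) and only Mmp14 met the minimum in both groups, with Mmp14 going from 1.15 ± 0.260 to 265 ± 39.0 CPM and Mmp2 from 0.0321 ± 0.0557 to 138 ± 19.2 CPM. Among 6 fibril-binding proteoglycans, all 4 tested were higher (median 10.64) and none met the minimum in spleen, with Aspn going from 0.0166 ± 0.0288 to 61.5 ± 13.4 CPM and Dcn from 0.112 ± 0.195 to 114 ± 23.5 CPM.

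Markers of other cell types were present in tumour at lower levels than those of fibroblasts. The 8 pericyte and smooth muscle genes summed to 235 to 353 CPM in tumour against 2.97 to 3.98 CPM in spleen, with Acta2, also made by activated fibroblasts, at 205 ± 39.1 CPM. The 8 endothelial genes summed to 31.4 to 37.5 CPM against 0.699 to 1.16 CPM, with Cdh5 at 11.1 ± 1.42 CPM. The 11 myeloid genes summed to 31.4 to 46.3 CPM against 7.51 to 9.49 CPM, with Cd14 at 13.3 ± 3.68 CPM. The 4 NK cell genes summed to 27.5 to 41.9 CPM against 4.29 to 6.53 CPM. Keratin, adipocyte, skeletal muscle and red cell lists stayed at or under 6.57 CPM in every library. The parts of these cells in the collagen levels were not tested.

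The second comparison asked whether the acetyl-CoA carboxylase inhibitor changes collagen RNA in T cells activated in culture. Collagen genes took 0.00796% to 0.00833% of counts in vehicle and 0.00657% to 0.00773% in ND-646 libraries, so the groups did not overlap. The means were 0.00814% ± 0.000177 and 0.00721% ± 0.000509 (SD, n = 4 each), and this share was not tested. Only 11 of the 44 collagens had enough counts to be tested in this table, and the other 33 had at most 20 counts in any library. By edgeR's quasi-likelihood test 1 was higher with ND-646, 5 were lower and 5 did not pass. Of the 5 lower genes, 4 met the count minimum in both groups and Col15a1 only in vehicle. Of all 14251 genes tested, 56.3% were called, 29.8% higher and 26.5% lower. The median log2 fold change was -0.18 over the 11 collagens and 0.01 over all genes.

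Col7a1, of the anchoring fibrils, had the smallest p-value. It stood at 12.7, 12, 11 and 11 CPM in vehicle and 4.04, 5.71, 5.19 and 4.35 CPM in ND-646 libraries 1 to 4. The groups did not overlap, and the log2 fold change was -1.28 ± 0.10 (edgeR adjusted p = 6.46e-09). Col15a1, a multiplexin, stood at 1.84, 1.78, 1.93 and 1.45 CPM in vehicle and 0.318, 0.585, 0.670 and 0.212 CPM with ND-646. It fell by 1.95 ± 0.27 on the log2 scale (edgeR adjusted p = 7.53e-06), and it had 45, 51, 45 and 34 counts in vehicle and 10, 20, 19 and 6 with ND-646. Col15a1 was tested only through its vehicle libraries, so the filter favoured a fall. For both genes ND-646 libraries 1 and 4 were lower than 2 and 3, and over all genes the same pairs were closest: the chi-square divided by its degrees of freedom was 5.35 for 1 and 4, 3.83 for 2 and 3, and 7.86 to 12.2 across the pairs.

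Col27a1 of the fibril-forming class stood at 2.54, 2.34, 1.59 and 1.96 CPM in vehicle and 0.764, 0.849, 0.635 and 0.991 CPM with ND-646. Col23a1, the transmembrane collagen, stood at 2.25, 2.17, 3.05 and 3.20 CPM in vehicle and 1.08, 1.43, 1.24 and 1.31 CPM with ND-646. Neither gene's groups overlapped. They fell by 1.38 ± 0.21 and 1.07 ± 0.18 on the log2 scale (edgeR adjusted p = 1.78e-05 and 7.27e-05).

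Col6a2, a chain of type VI collagen, was the only tested collagen that rose. It stood at 5.36, 5.56, 4.00 and 4.56 CPM in vehicle and 5.66, 6.35, 6.85 and 7.85 CPM with ND-646, so the groups came close without overlapping. The log2 fold change was 0.44 ± 0.12 (edgeR adjusted p = 0.00432). Col6a1, its partner, stood at 1.13 ± 0.119 and 1.04 ± 0.188 CPM and did not pass, and Col6a3, the chain that type VI filaments also need, had 0 or 1 counts in every culture library.

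Col9a3 stood at 4.91, 5.74, 5.50 and 5.24 CPM in vehicle and 4.36, 4.98, 4.45 and 3.22 CPM with ND-646. Its groups overlapped. The log2 fold change was -0.33 ± 0.12 (edgeR adjusted p = 0.0318), and the call was lost when vehicle library 2, 3 or 4 or ND-646 library 4 was left out (adjusted p = 0.0912, 0.0659, 0.0521 and 0.0924), with CD8 scaling (0.0574) and with DESeq2's Wald test (0.0569). Over all its alternatives the adjusted p ran from 0.0103 to 0.0924.

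The 2 most abundant collagens of the cultures, Col11a2 and Col20a1, did not pass. Col11a2 stood at 27.9, 27.7, 25.4 and 25.7 CPM in vehicle and 27.0, 27.8, 26.6 and 24.9 CPM with ND-646. Col20a1 stood at 18.5, 19.9, 20.3 and 19.7 CPM in vehicle and 20.1, 22.2, 20.8 and 15.4 CPM with ND-646. The groups overlapped for both genes, with log2 fold changes of -0.00 ± 0.06 and 0.00 ± 0.09 (edgeR adjusted p = 0.962 and 0.97) that changed sign between alternatives. The neighbour of Col11a2, Rxrb, rose from 73.3 ± 3.34 to 105 ± 5.05 CPM in the same libraries (log2 0.52 ± 0.04, edgeR adjusted p = 1.18e-08). The other collagens that did not pass were Col4a4, Col6a1 and Col18a1, with adjusted p from 0.189 upward.

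**Figure D5:**
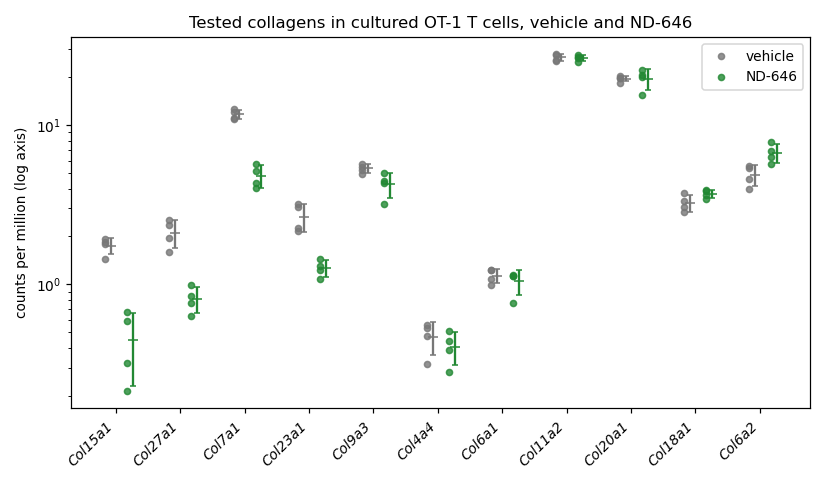
CPM (log axis) of the 11 tested collagens in the 4 vehicle (grey) and 4 ND-646 (green) libraries, with mean and SD beside the points, ordered by log2 fold change. Col15a1, Col27a1, Col7a1 and Col23a1 are separated with ND-646 lower, Col6a2 is separated with ND-646 higher, and Col11a2 and Col20a1 overlap.

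Genes of collagen hydroxylation, folding and export were more often higher than lower with ND-646. Of 21 genes 15 were tested, 9 were higher (60%, against 29.8% of all genes tested), 2 were lower (13.3%, against 26.5%) and 4 did not pass. The median log2 fold change was 0.14, against 0.01 over all genes. The 21 genes summed to 988 to 1023 CPM in vehicle and 1110 to 1216 CPM with ND-646, so the sums did not overlap. P4ha2, a catalytic subunit of prolyl hydroxylase named here after its values were seen, went from 24.1 ± 2.41 to 45.9 ± 10.3 CPM (log2 0.93 ± 0.17, edgeR adjusted p = 0.00314). P4hb went from 340 ± 9.66 to 440 ± 38.0 CPM and Tmem38b, an ion channel of the endoplasmic reticulum, from 11.9 ± 0.449 to 16.1 ± 1.19 CPM (SD, n = 4 each). Of the 5 tested processing genes 0 were higher and 2 were lower, and both are procollagen proteinases: Adamts14 went from 111 ± 5.85 to 44.9 ± 5.18 CPM and Bmp1 from 3.28 ± 0.446 to 0.707 ± 0.0754 CPM. Their log2 fold changes were -1.30 ± 0.07 and -2.21 ± 0.18 (edgeR adjusted p = 1.63e-08 and 9.17e-09).

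Of the 6 tested receptors 2 were higher and 2 were lower, 33.3% each. These shares were near the 29.8% higher and 26.5% lower of all genes tested. Itga1, the alpha chain of a collagen-binding integrin of T cells, fell from 5.11 ± 1.36 to 1.70 ± 0.337 CPM, while Itga10 rose from 4.65 ± 0.282 to 7.49 ± 0.306 CPM. The other changed receptors were Itga2 at 6.89 ± 0.816 and 10.8 ± 1.07 CPM and Lair1 at 5.21 ± 0.474 and 3.39 ± 0.518 CPM. Of the degrading enzymes, Mmp9 rose from 2.63 ± 0.352 to 6.10 ± 0.861 CPM and Mmp14 fell from 0.902 ± 0.205 to 0.558 ± 0.166 CPM, a call that was lost with CD8 scaling. The proteoglycan Lum, the only one tested, fell from 0.591 ± 0.0535 to 0.0394 ± 0.0290 CPM. Mmp14 and Lum met the count minimum only in vehicle, so the filter favoured their falls.

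Markers of other cells moved in these whole splenocyte cultures beside the collagens. The 11 myeloid genes summed to 17.9 to 20.1 CPM in vehicle and 5.68 to 7.38 CPM with ND-646, and Cd68, which other cells also express, fell from 13.6 ± 1.42 to 4.41 ± 0.495 CPM. The macrophage genes Adgre1, C1qa, C1qb and C1qc were near 0 in both groups. The 8 pericyte and smooth muscle genes summed to 27.2 to 30.9 and 14.5 to 19.7 CPM, mostly Notch3 at 25.5 ± 1.5 and 15 ± 2.16 CPM, with Rgs5, Cspg4 and Acta2 near or at 0. The 13 fibroblast genes summed to 4.76 to 6.58 and 6.40 to 7.45 CPM, with Fn1 and Sparc near 0. Of the 4 tested, Twist1 rose from 1.13 ± 0.392 to 3.14 ± 0.130 CPM (log2 1.47 ± 0.20, edgeR adjusted p = 5.17e-06), Pdgfrb fell from 3.30 ± 0.731 to 2.06 ± 0.335 CPM (log2 -0.67 ± 0.17, edgeR adjusted p = 0.00338), and Cdh11 and Thbs1 did not pass. The 8 endothelial genes summed to 6.14 to 7.35 and 2.72 to 3.50 CPM, with Cdh5, Emcn and Cldn5 at 0. The NK cell genes summed to 5.28 to 7.42 and 3.00 to 3.54 CPM. The B cell genes summed to 113 to 129 and 148 to 173 CPM, mostly Ighm. The parts of these cells in the collagen changes were not tested.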

How the data were processed

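Poly(A) RNA of 14 mouse libraries was sequenced with a strand-specific kit, per the labels' protocols. Each experiment has a table of estimated counts by gene symbol, deposited by the authors. STAR, Salmon and DESeq2 appear in the submitters' processing notes, with neither version nor role. The genome build, the annotation and whether strand was used in counting were not given in the sources used here. Estimated counts share reads between similar or overlapping transcripts by a model. They were rounded before testing, and all columns matched a sample by title.

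Each comparison was fitted on its whole table with edgeR 4.0.16 in R 4.3.3: TMM scaling, the filterByExpr filter (minimum count 10, minimum total 15), quasi-likelihood tests with robust dispersion, and p-values adjusted by Benjamini-Hochberg at 0.05. Standard errors come from the log2 fold change and the F statistic. CPM are counts per 1000000 of the TMM-scaled library. Folds against a group at 0 use 3 counts over that group. All 44 collagens, and 96.4% of the symbols, were found in GENCODE M21, which gave lengths and neighbours. Promoters are RefSeq's.

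The members and gene lists were chosen with earlier results of these data known. Per-library values were given for the 12 collagens of highest tumour mean, and in the cultures for those called or among the 5 highest. Other collagens were named to account for their class, after their values were seen. Of each pathway list the 2 smallest p-values were named, and of cell type lists the most abundant gene. Of the 15 fibroblast genes listed, 13 were among the symbols. A gene of the cell type lists is not reported here.

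On simulated counts with 50 genes changed at each fold, changes of 1.25-fold, 1.5-fold, 2-fold and 4-fold were found for 34%, 56%, 78% and 98% of genes in the tumour comparison (15042 genes), and 10.1% of its calls were false. In the ND-646 comparison (14251 genes) the shares were 50%, 84%, 92% and 100%, and 6.86% of its calls were false. No replicate pair agreed within sampling noise (chi-square over its degrees of freedom 2.30 to 19.7), so each library counted once. Alternatives were DESeq2 1.42.0 size factors and Wald test, scaling to 12 CD8 T cell markers, no or a stricter count filter, a block for the replicate number, a required change beyond 2-fold and each library left out in turn. Intervals cover counting error only.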

Additional observations from a re-analysis of the deposited data

Results flagged for a closer look

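Col6a1 in ND-646 library 2 stood at 0.761 CPM, far from the other ND-646 libraries at 1.15, 1.13 and 1.13 CPM relative to their spread. It was the only such value among 24 groups of 4 examined, and chance marks about 1 in 20. Col6a1 did not pass the test between ND-646 and vehicle.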

How the results depend on the processing

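In tumour against spleen, the 27 tested collagens kept their direction and their call in all 322 alternative values, and the called number ran from 25 (mean count of at least 50) to 33 (DESeq2's Wald test, or no filter, which added Col4a6, Col6a5, Col13a1, Col14a1, Col17a1 and Col28a1 as higher). Leaving out one library gave 27 to 29. Scaling to CD8 T cell markers moved all 27 fold changes by over 1.5 times, at most 2.07 times, and leaving out spleen library 1 moved 13 of them by over 1.5 times. The other alternatives moved none by over 1.5 times. The 4 lower collagens were lower under every alternative that tested them, from -3.44 to -2.36 for Col11a2, -4.03 to -2.81 for Col23a1, -4.20 to -3.12 for Col20a1 and -2.98 to -1.92 for Col9a3.

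In ND-646 against vehicle, 6 calls became 10 with no filter on low counts, where Col26a1 was higher (0, 1, 1 and 0 counts in vehicle, 8, 12, 11 and 14 with ND-646; adjusted p = 6.36e-07) and Col2a1, Col9a2 and Col17a1 were lower. They became 1 when a change beyond 2-fold was required, 4 with a mean count of at least 50 and 9 with DESeq2's Wald test, and were 5 to 7 without one library. Col9a3 lost its call in 6 alternatives. Changes of sign were limited to the 2 genes near 0: Col20a1 was at -0.01 with DESeq2 size factors and with a mean count of at least 50, and at 0.00 with the Wald test and the block, and Col11a2 was at 0.05 with CD8 scaling and 0.00 with no filter. Leaving out one library gave -0.03 to 0.02 for Col11a2 and -0.07 to 0.09 for Col20a1. Without mitochondrially encoded genes the vehicle share of collagen counts was 0.00839%.

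Libraries of the same replicate number deviated with correlations of -0.026 to -0.021 in tumour and spleen and -0.14 to 0.056 in the cultures. Libraries of different numbers gave -0.029 to 0.049 and -0.082 to 0.129. With so few libraries per group, these values cannot show whether libraries of the same number shared a mouse or culture. With the replicate number as a block, 27 and 6 collagens were called, the same numbers as without it.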
